A study of Mus musculus with 4 samples.

Results

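The genes described here are the mouse hepcidin genes and the regulators of their expression by bone morphogenetic protein (BMP) signalling: Hamp, Hamp2, Bmp6, Hjv, Hfe, Tfr2, Tmprss6, Id1, Smad6 and Smad7. They are 10 of the 18193 genes that had at least 1 probe set with a single gene symbol on the array, and they were found on 16 of 34945 such probe sets. The probe set of each gene was chosen by the highest mean signal over the 4 arrays, and its other probe sets were kept as a check. The genes themselves were drawn up with earlier results of these data known, in which the Hamp signal already stood out, so the genotype differences of these genes are given as descriptions without a test.

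Liver RNA came from C57BL/6 fetuses on day 17 of gestation, from wildtype fetuses and from fetuses heterozygous for Sox17 (Sox17+/-), which encodes an endodermal and endothelial transcription factor. The dams were C57BL/6 females mated with Sox17+/- males of the same strain, and the liver was separated from the biliary system before extraction. Each genotype had 2 biological replicates, each on 1 Affymetrix array. The sources used here do not state the sex of the fetuses, the number of fetuses per replicate or how the Sox17 allele was altered. The values are MAS5 signals on a linear scale.

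Hepcidin is a peptide hormone secreted by hepatocytes. It binds the iron exporter ferroportin and causes its degradation, which lowers the release of iron into plasma. In the liver, BMP ligands from endothelial cells act on hepatocyte receptors together with the co-receptor hemojuvelin, and phosphorylated SMAD proteins then raise transcription of the hepcidin gene and of feedback genes such as Id1, Smad6 and Smad7. A further route runs from interleukin-6 through STAT3 to a site in the same promoter.

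The 2 hepcidin genes are near copies that lie close together on chromosome 7, with Hamp beside Usf2. The 250 bases before the RefSeq start of each gene are shown because they hold the elements through which the BMP and STAT3 routes are known to act on Hamp. Both are printed 5′ to 3′ on the minus strand of GRCm38.p6, from chr7:30944030-30944279 for Hamp and chr7:30924182-30924431 for Hamp2. Capitals mark, first, the BMP response element GGCGCC in Hamp and the stretch of Hamp2 that aligns with it, and, second, the STAT match TTCNNNGAA.
Hamp: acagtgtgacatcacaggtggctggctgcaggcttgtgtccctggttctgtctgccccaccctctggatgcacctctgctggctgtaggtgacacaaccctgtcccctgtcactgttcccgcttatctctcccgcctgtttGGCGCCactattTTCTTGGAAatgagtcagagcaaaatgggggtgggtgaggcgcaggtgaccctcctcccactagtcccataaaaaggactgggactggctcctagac
Hamp2: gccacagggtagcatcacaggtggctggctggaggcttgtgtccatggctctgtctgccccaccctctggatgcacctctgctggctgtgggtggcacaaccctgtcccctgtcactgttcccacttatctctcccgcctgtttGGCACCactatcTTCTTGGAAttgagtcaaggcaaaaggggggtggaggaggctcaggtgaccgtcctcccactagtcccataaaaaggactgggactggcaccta

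The promoters were identical at 227 of 253 aligned positions (89.7%), with 20 substitutions and 6 gap positions. In Hamp the BMP response element lay 109 to 104 bases before the start. The aligned stretch of Hamp2, 106 to 101 bases before the start, differed from it by G4A, counted from 1 at the 5′ end of the element with the Hamp base first, and Hamp2 held no GGCGCC in this window. Both genes held the STAT match and 1 SMAD box (CAGAC, found on the opposite strand in both). Neither held the SMAD palindrome GTCTNGAC, the E-box CACGTG or the C/EBP motif TTNNGNAA. Searched on both strands, GGCGCC was found in 9.59% of the 32851 RefSeq promoter windows of the same length, TTCNNNGAA in 7.02%, CAGAC in 42.2%, GTCTNGAC in 1.47%, CACGTG in 6.02% and TTNNGNAA in 36.8%. A match is a match of letters only, and no binding was measured.

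**Figure D1:**
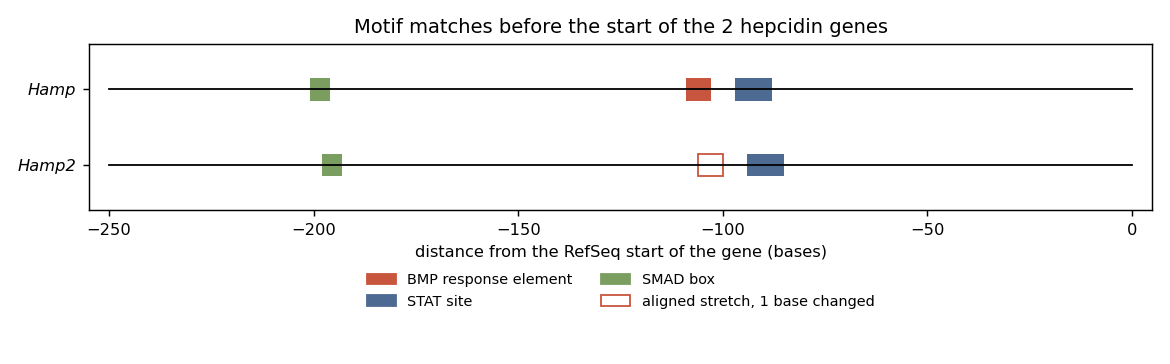
Motif matches in the 250 bases before the RefSeq start of Hamp and Hamp2, by distance from the start in bases. Filled boxes are the BMP response element, the STAT match and the SMAD box, and the open box is the Hamp2 stretch that aligns with the Hamp element and differs by 1 base. The order and spacing of the matches are the same in both genes apart from that element.

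Sox17 itself had signals of 244 and 264 on wildtype arrays 1 and 2 and of 139 and 124 on Sox17+/- arrays 1 and 2 on its brighter probe set. Its other probe set had 238 and 167 in wildtype and 105 and 99.6 in Sox17+/- liver. The sources do not say whether the probes fall within the altered region, so how far these values check the labels is not known. All 4 arrays had the same trimmed mean of 500, and their medians lay between 84.7 and 103. The ratio of 3′ to 5′ Actb signal was 1.95 on wildtype array 1 and 1.20 to 1.43 on the other 3 arrays. For Gapdh that ratio was nearly equal on all 4 arrays, from 0.81 on wildtype array 2 to 0.85 on wildtype array 1. The 8 hepatocyte markers measured as a check of the tissue were bright on every array, and the genotypes overlapped for each of them. Their summed signal split by array number, with 313005 and 190651 on wildtype arrays 1 and 2 and 313100 and 180876 on Sox17+/- arrays 1 and 2. In the same order, the highest signal of an array was 56988, 34407, 56860 and 32468, and the BioB control had 893, 306, 707 and 281. The small number of arrays, 2 for each genotype, limits how precisely any value is known. In bulk tissue, fewer cells of a type and less RNA per cell cannot be told apart.

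Hamp had the highest mean log2 difference of the set over all 4 arrays. Its signal was 799 and 341 on wildtype arrays 1 and 2 and 15330 and 1472 on Sox17+/- arrays 1 and 2. Both Sox17+/- arrays lay above both wildtype arrays, but the Sox17+/- arrays themselves were 10.4-fold apart and the wildtype arrays 2.34-fold apart. The group means were 8401 ± 9799 in Sox17+/- and 570.1 ± 324 in wildtype liver (SD, n = 2 each). On the scale of log2(signal + 16), used for all differences below, Hamp was higher by 3.15 (SE 1.14), which is 8.86-fold on that scale. The second Hamp probe set followed the first closely, with 647 and 320 in wildtype and 11242 and 1206 in Sox17+/- liver and a log2 difference of 2.97. Without Sox17+/- array 1 the difference was 1.46, and without Sox17+/- array 2 it was 4.83, so its size rested on which of these arrays was kept. Its direction could not turn without 1 array, since the genotypes did not overlap.

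The 2 probe sets of Hamp2, the second hepcidin gene of mice, disagreed. The brighter one had signals of 13.7 and 85.3 in wildtype and 578 and 149 in Sox17+/- liver, a log2 difference of 2.51 (SE 0.83). The other had 10.3 and 51.3 in wildtype and 4.94 and 3.54 in Sox17+/- liver, a log2 difference of -1.06, and its mean signal lay at the 13.1 percentile of all probe sets. The name of the brighter one ends in _x_at, which marks an Affymetrix probe set in which some probes may also match other sequences. The second Hamp probe set, the brighter Tfr2 probe set and the second Smad7 probe set carry the same suffix. How much of the Hamp2 signal came from Hamp transcripts was not tested, and the direction for Hamp2 is therefore uncertain.

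Bmp6 encodes the ligand that is best known for inducing hepcidin in the adult liver. Its only probe set was dim, at the 42.5 percentile of mean signal, and did not pass the filter that kept the brighter 50% of probe sets for testing. Its signal was 24.0 and 37.1 in wildtype and 117 and 78.5 in Sox17+/- liver. The genotypes did not overlap, and the log2 difference was 1.29 (SE 0.32, from a fit with no brightness filter). That value depends on the constant added to such dim signals, and was 1.65 with 1 and 0.77 with 64 in place of 16. Of 9 endothelial markers, all measured and none at 0, 4 had both Sox17+/- arrays above both wildtype arrays and 1 had them below (Tek), patterns seen in 14.5% and 18.7% of all 11676 tested genes. Their summed signal was 6064 to 7769 in wildtype and 7614 to 7692 in Sox17+/- liver, and its part in the Bmp6 values was not tested.

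The BMP feedback genes were also higher in Sox17+/- liver, by less. Id1, an inhibitor of helix-loop-helix transcription factors and a direct BMP target, had 653 and 1066 in wildtype and 1950 and 1171 in Sox17+/- liver. Its groups were separate only by the narrow gap between 1066 and 1171, and its log2 difference was 0.84 (SE 0.37). Smad7, an inhibitory SMAD that blocks the receptor, had 238 and 129 in wildtype and 361 and 311 in Sox17+/- liver, a log2 difference of 0.87 (SE 0.33). Its second probe set had 172 and 109 in wildtype and 196 and 107 in Sox17+/- liver, so that the genotypes overlapped and the log2 difference was 0.08. Smad6, the related inhibitory SMAD, had 444 and 419 in wildtype and 572 and 467 in Sox17+/- liver, a log2 difference of 0.25 (SE 0.21).

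**Figure D2:**
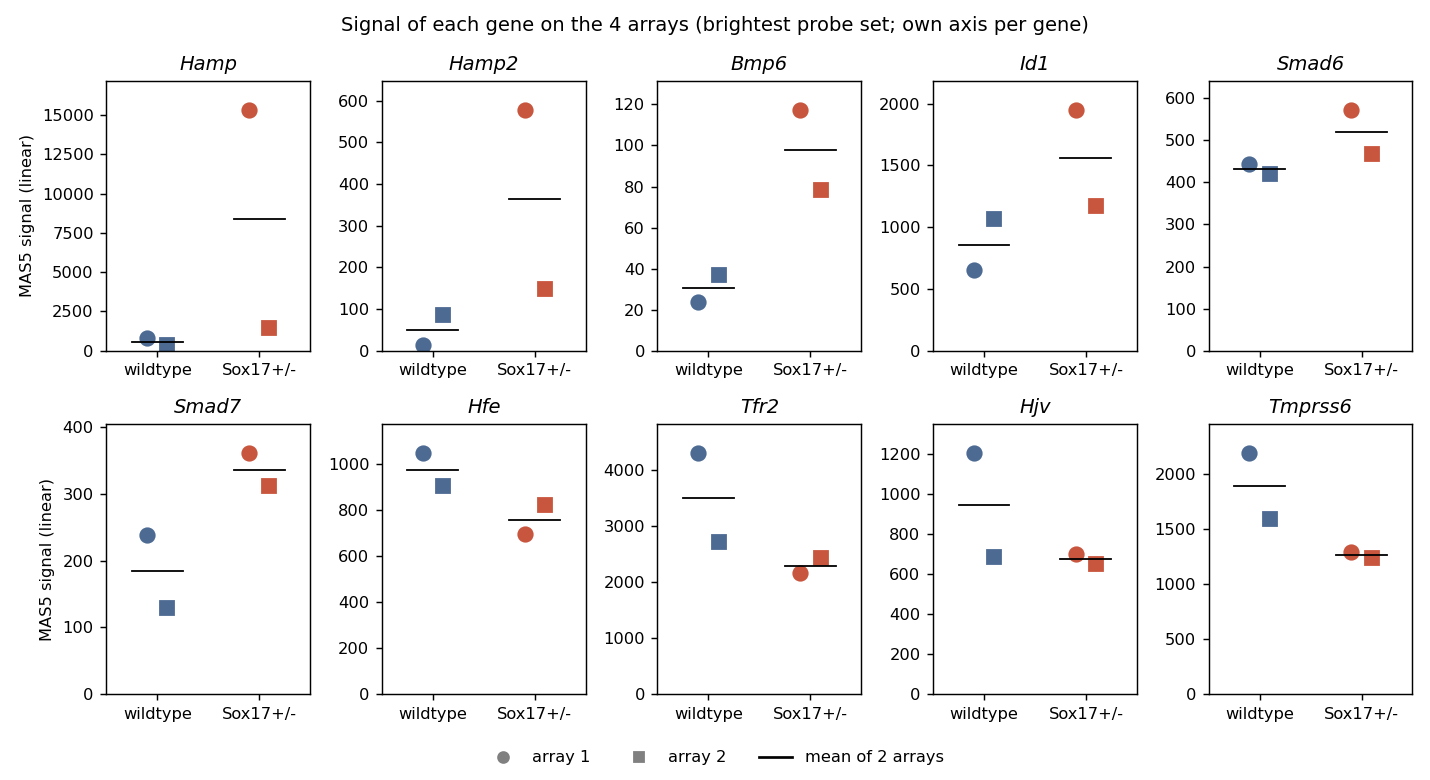
MAS5 signal on a linear axis (vertical, one axis per gene) of the brightest probe set of each gene on the wildtype arrays (blue) and the Sox17+/- arrays (red), with circles for arrays numbered 1, squares for arrays numbered 2 and bars for the mean of 2 arrays. The first 6 genes have both Sox17+/- arrays above both wildtype arrays, with Sox17+/- array 1 highest in each, and the last 4 have their highest signal on wildtype array 1.

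The genes of the iron-sensing complex and the protease that opposes it were lower in Sox17+/- liver. Tfr2, the transferrin receptor of hepatocytes that signals iron load, had 4298 and 2704 in wildtype and 2158 and 2421 in Sox17+/- liver, a log2 difference of -0.57 (SE 0.29). Hfe, the haemochromatosis protein that acts with it, had 1049 and 904 in wildtype and 695 and 822 in Sox17+/- liver, a log2 difference of -0.36 (SE 0.22). On both probe sets of either gene the Sox17+/- arrays were below the wildtype arrays without overlap.

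Hjv, which encodes the BMP co-receptor hemojuvelin, had 1205 and 687 in wildtype and 702 and 652 in Sox17+/- liver. The genotypes overlapped, since 702 exceeded 687, and the log2 difference was -0.42 (SE 0.32). On its other probe set they did not overlap, with 714 and 420 against 371 and 375. Tmprss6, the membrane protease matriptase-2 that cleaves hemojuvelin and so lowers hepcidin, had 2189 and 1594 in wildtype and 1286 and 1233 in Sox17+/- liver. Its 4 signals did not overlap between genotypes, and its log2 difference was -0.56 (SE 0.24). Lower signals were thus seen for genes that promote hepcidin expression and for one that opposes it.

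On their brightest probe sets all 4 of these genes had their highest signal on wildtype array 1, as did 30.5% of all tested genes. Without that array the log2 differences came to -0.24 for Tfr2, -0.25 for Hfe, -0.34 for Tmprss6 and -0.02 for Hjv, and so shrank. Only for Hjv, whose genotypes overlapped, could the sign turn without 1 array, and it did not. The differences of these 4 genes also depended on scaling. The median log2 signal of all probe sets differed by -0.20 between Sox17+/- array 2 and wildtype array 2, while the median difference of the brighter, tested genes between those arrays was -0.02. With each array centred on its median the latter became 0.19, and the differences between the arrays numbered 2 became 0.04 for Tfr2, 0.07 for Hfe, 0.13 for Hjv and -0.16 for Tmprss6. Over both pairs the median-centred differences were still negative, at -0.53, -0.31, -0.37 and -0.52.

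Over the 10 genes, on the brightest probe set of each, 6 had both Sox17+/- arrays above both wildtype arrays, 3 had them below and 1 overlapped. Without Bmp6, which was not tested, 5 of 9 were above and 3 below. Over all tested genes, also on their brightest probe sets, the shares were 14.5% and 18.7%. Over all 16 probe sets of the 10 genes, 7 were above, 7 below and 2 overlapped. In the pairs of arrays with the same replicate number, 6 of the 10 genes had a higher Sox17+/- signal in each pair and 4 a lower one in each pair, against 25.5% and 32.3% of all tested genes. Because the set was chosen with these differences in view, nothing is read from its counts. The limma test over all 22519 tested probe sets called 0 at an adjusted p under 0.05 (0% of probe sets, smallest adjusted p = 0.387), with 916 at an unadjusted p under 0.05.

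The size of the difference was unequal between the pairs. For Hamp the log2 difference was 4.23 between the arrays numbered 1 and 2.06 between those numbered 2. For the brighter Hamp2 probe set it was 4.32 and 0.70, for Bmp6 1.74 and 0.83, and for Id1 1.55 and 0.13. Smad7 ran the other way, at 0.57 and 1.17, and Smad6 had 0.35 and 0.15. On their brightest probe sets the 4 lower genes, like Hamp, differed more between the arrays numbered 1, with -0.99 and -0.16 for Tfr2, -0.77 and -0.07 for Hjv, -0.76 and -0.37 for Tmprss6 and -0.58 and -0.13 for Hfe. The other Hfe probe set ran the opposite way, with -0.17 and -0.75. Sox17+/- array 1 was the highest of the 4 arrays for each of Hamp, Hamp2, Bmp6, Id1, Smad6 and Smad7, as it was for 22.9% of all tested genes.

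**Figure D3:**
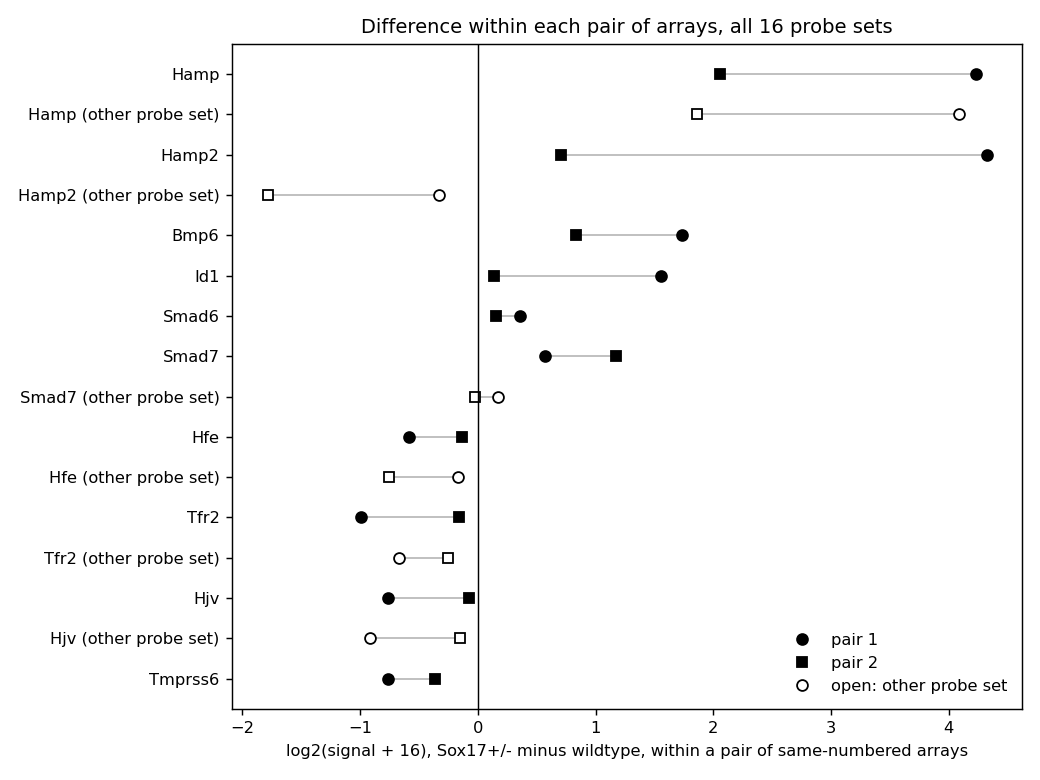
Difference in log2(signal + 16), Sox17+/- minus wildtype (horizontal), between the arrays numbered 1 (circles) and between those numbered 2 (squares), for all 16 probe sets. Filled symbols are the brightest probe set of a gene and open symbols the other one; Hamp reaches 4.23 and 2.06, and the second probe sets of Hamp2 and Smad7 depart from the first.

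The other genes of the pathway were taken from 9 lists with 65 genes, of which 59 had a probe set with a single symbol and 48 passed the brightness filter. None passed the limma test over all probe sets (adjusted p = 0.9999 for each), and 1 of the 48, Bmp2, had an unadjusted p under 0.05. Both Sox17+/- arrays lay above both wildtype arrays for 10 of the 48 and below for 3 (14.5% and 18.7% of all tested genes), and the median log2 difference was 0.10, against -0.02 over all tested genes. The 10 include Osm, which passed the brightness filter only through its Sox17+/- signals. Named below are the 3 tested genes with the smallest p of each list, or all where fewer were tested, and any gene whose genotypes were separated by over 2-fold (Bmp10), while others are named as chosen after their values were seen.

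Among 7 tested BMP ligands, 1 was separate and higher and 1 separate and lower, close to the shares of 14.5% and 18.7% over all tested genes. Bmp2, which induces hepcidin alongside Bmp6, had 262 and 227 in wildtype and 509 and 333 in Sox17+/- liver, a log2 difference of 0.72 (SE 0.27). Gdf2, or BMP9, a ligand made in the liver, had 1335 and 1066 in wildtype and 994 and 958 in Sox17+/- liver, a log2 difference of -0.29. Inhbb, the activin B subunit that is induced in inflamed liver, had 106 and 96.6 in wildtype and 291 and 106 in Sox17+/- liver, so that its difference of 0.72 lay on 1 array. Bmp10 was as dim as Bmp6 and likewise untested, with 30.3 and 32.5 in wildtype and 138 and 66.4 in Sox17+/- liver.

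Of 9 tested receptors and co-receptors 3 were separate and higher and 1 separate and lower, beside 14.5% and 18.7% of all tested genes. Acvrl1, the endothelial receptor for BMP9 and BMP10, had 111 and 92.5 in wildtype and 143 and 142 in Sox17+/- liver (log2 difference 0.43, SE 0.21). The type II receptor gene Bmpr2 had a log2 difference of 0.30, or 0.66 as the mean over its tested probe sets. The hemojuvelin-binding receptor gene Neo1 had one of -0.29, or -0.09 as that mean. The signal transducers Smad1, Smad4 and Smad5 had differences of 0.16, 0.20 and -0.26, with overlapping genotypes for each, and the sign of each turned when 1 array was left out.

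Of 4 tested BMP target genes beyond the set, 1 was separate and higher, beside 14.5% of all tested genes. Id2 had 4744 and 4135 in wildtype and 7428 and 5288 in Sox17+/- liver (log2 difference 0.50, SE 0.25). Id4 and the decoy receptor gene Bambi overlapped, with differences of -0.12 and 0.19. Id3, chosen after its values were seen as the close relative of Id1, had 643 and 580 in wildtype and 711 and 422 in Sox17+/- liver, a difference of -0.15. The hepatocyte BMP target Atoh8, also chosen after its values were seen, was dim and untested, with 16.4 and 33.7 in wildtype and 129 and 26.9 in Sox17+/- liver. Id3 was thus not separate between genotypes, and its difference was 0.21 without Sox17+/- array 2.

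Among 6 tested inhibitors of the pathway, 1 was separate and higher, close to the share of 14.5% over all tested genes. This was the activin and BMP antagonist Fst, with 394 and 350.1 in wildtype and 452 and 711 in Sox17+/- liver (log2 difference 0.59, SE 0.28). The follistatin-like gene Fstl1 had a difference of 0.21 and the ubiquitin ligase gene Smurf2, which targets SMADs, one of -0.17, both with overlap. Furin, whose protease cuts hemojuvelin, had a difference of -0.19, and Spint2, which encodes an inhibitor of matriptase-2, one of 0.22. In the transferrin-sensing list Tfrc, the receptor for transferrin uptake, differed by -0.16 and B2m, the partner chain of HFE, by -0.03.

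**Figure D4:**
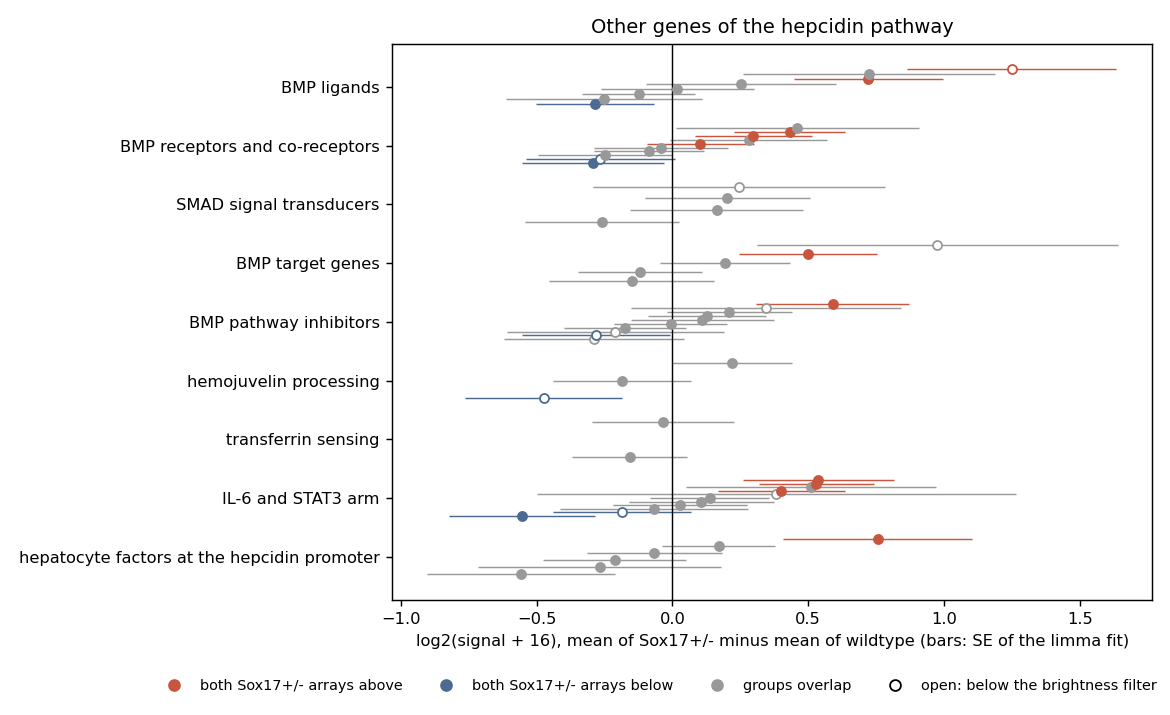
Difference in log2(signal + 16), mean of Sox17+/- minus mean of wildtype (horizontal), of 59 other genes in the 9 pathway lists (vertical), with bars for the SE of the limma fit. Red points have both Sox17+/- arrays above both wildtype arrays, blue points below, grey points overlap, and open points lie below the brightness filter; most points are grey, and the tested points lie between -0.56 and 0.76.

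In the interleukin-6 and STAT3 list 3 of 9 tested genes were separate and higher and 1 separate and lower (14.5% and 18.7% of all tested genes). Jak1, a kinase of the interleukin-6 receptor, had 2266 and 2684 in wildtype and 3733 and 3406 in Sox17+/- liver (log2 difference 0.53, SE 0.21). Socs3, the feedback inhibitor induced by STAT3, had 450 and 643 in wildtype and 909 and 684 in Sox17+/- liver (log2 difference 0.54, SE 0.28). Osm, also among the 3 higher genes and named after its values were seen, had 78.0 and 74.1 in wildtype and 124 and 89.4 in Sox17+/- liver. Its wildtype mean of 76.0 lay below the brightness filter. It passed through its Sox17+/- signals, so its place in this count was in part selected for. Il1b, an inflammatory cytokine, was lower, with 160 and 176 against 137 and 86.3. Il6 itself, chosen after its values were seen, was dim and inconsistent, with 8.53 and 40.0 in wildtype and 89.9 and 6.05 in Sox17+/- liver. Of 8 macrophage markers 1 was separate and higher and 4 separate and lower (14.5% and 18.7% of all tested genes). Chosen after their values were seen, the scavenger receptor gene Marco had 2257 and 1738 in wildtype and 5024 and 3274 in Sox17+/- liver (log2 difference 1.03), and the Kupffer cell gene Vsig4 had 811 and 364 in wildtype and 130.03 and 194 in Sox17+/- liver (-1.68). The summed signal of the markers was 17624 to 21287 in wildtype and 18826 to 21317 in Sox17+/- liver, and their part in these values was not tested.

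Among the hepatocyte factors of the hepcidin promoter, Cebpb, induced in the acute phase response, had 1288 and 1106 in wildtype and 2770 and 1482 in Sox17+/- liver (log2 difference 0.76, SE 0.35), and its difference was 0.31 without Sox17+/- array 1 and 1.20 without Sox17+/- array 2. Cebpa, the factor that maintains basal Hamp transcription, had 4127 and 2295 in wildtype and 2361 and 1841 in Sox17+/- liver, which overlapped (log2 difference -0.56, and -0.14 without wildtype array 1 or -0.98 without wildtype array 2). Usf2, the chromosomal neighbour of Hamp, had 1056 and 953 in wildtype and 1051 and 1217 in Sox17+/- liver. Its difference was 0.17, with overlap, and 0.003 as the mean over its tested probe sets, beside 3.15 at the adjacent Hamp.

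The genes most like Hamp over the 4 arrays were found by the Euclidean distance between log2 values centred on each gene's mean, among 11675 other tested genes. They were the chemokine gene Cxcl2 (distance 1.42), the stress-induced factor gene Atf3 (1.46), the T cell receptor segment Trgv4 (1.56), the hypoxia-induced gene Ankrd37 (1.64) and the chemokine gene Cxcl10 (1.87). Cxcl2 had 21.9 and 27.4 in wildtype and 582 and 138 in Sox17+/- liver, and Cxcl10 had 105 and 191 in wildtype and 5132 and 1215 in Sox17+/- liver. Hamp2 ranked 18 in this order (distance 2.44), Smad7 137, Id1 158 and Smad6 1092. The 4 lower genes had ranks of 8735 for Hjv, 10122 for Hfe, 10297 for Tmprss6 and 10739 for Tfr2. Their distances were 4.26, 4.39, 4.42 and 4.50, beside 3.71 for Smad6. This distance keeps the size of each change, so the ranks of the members restate the sign and size of the differences given above. The likeness rests on 4 arrays. The wildtype means of Cxcl2, Atf3, Trgv4 and Hamp2 (24.6, 58.9, 87.0 and 49.5) lay below the brightness filter. These genes passed it through their Sox17+/- signals, so their closeness to Hamp was in part selected for. The name of the Trgv4 probe set also ends in _x_at.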

How the data were processed

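The deposited values are intensity values (signals) made by the authors with MAS5, per the submitters' processing notes, for 45101 probe sets on a linear scale. After the lowest and highest 2% were set aside, the mean was 500 on each of the 4 arrays. MAS5 signals of dim probe sets are noisy, scaling removes differences in total RNA, and no detection calls were used here.

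The members and gene lists were chosen with earlier results of these data known. The 64 control probe sets were left out, and symbols came from the platform annotation, updated through Entrez IDs (34945 probe sets with 1 symbol, 932 with several, 9160 with none). Of the rest, the brighter 50% by mean signal (22519 probe sets, 11676 genes) were tested as log2(signal + 16), a scale that understates differences of dim genes. The model had genotype as its term and was run in limma 3.58.1 under R 4.3.3 (lmFit, eBayes, two-sided), with Benjamini-Hochberg adjustment over all tested probe sets at 0.05. Residual degrees of freedom were 2 and the prior added 3.06. P-values rest on the spread between these samples together with the prior drawn from all tested probe sets. Permuting 2 against 2 arrays cannot give a two-sided p below 0.333. The code was tested on simulated data.

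All 10 members were named. Of each pathway list, genes past the threshold were to be named, else up to 3 with the smallest p, and those separated by over 2-fold, as were the 5 genes closest to Hamp. RefSeq promoter windows (GRCm38.p6) matched 6 members and were aligned with Biopython 1.88. For bile duct, erythroid and stellate markers both Sox17+/- arrays were above both wildtype arrays for 0 of 2, 0 of 5 and 2 of 8 tested genes, and below for 0, 1 and 1. Over all tested genes the shares were 14.5% above and 18.7% below. Alternatives were a replicate block, other pseudocounts, filters, scalings and priors, each array left out, and the mean over probe sets. Arrays with the same number share a code in their names, whose meaning is not stated.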

Additional observations from a re-analysis of the deposited data

How the results depend on the processing

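Over the 113 member differences computed with each alternative apart from the second probe set, 0 changed sign. Of these, 2 moved by more than 1 SD (the within-genotype SD of the log2 values, pooled over both genotypes), both for Bmp6 with another pseudocount. Much of this was fixed in advance. The replicate block and the brightness filters leave a difference of means unchanged. Leaving out 1 array cannot turn the sign of a gene whose genotypes do not overlap. With 2 arrays for each genotype it also cannot move a difference by more than that SD. The count of moved values therefore says nothing of how sizes held without 1 array. On the other probe set, an alternative chosen after seeing the data as were the counts of separate groups, Hamp2 turned to -1.06. Leaving out each array in turn gave 1.46 to 4.83 for Hamp. Of the 9 tested members, 5 to 5 were then separate and higher and 3 to 4 separate and lower (5 and 3 with all arrays). A gene separate on all arrays stays separate without any 1 of them, so these counts could not fall. Without 1 array the shares over all tested genes were 29.1% to 31.4% and 34.7% to 37.7%, against 14.5% and 18.7% with all arrays. Among the brighter 25% of probe sets 7 members remained, of which 3 were higher in both pairs and 3 separate and higher, fewer because fewer were tested. With quantile normalization 4 of the 9 tested members were separate and higher and 3 separate and lower (14.9% and 19% of all tested genes). With the mean over tested probe sets these counts were 4 and 4, against 5 and 3, and no share over all genes was computed for it. With median centring 1 member was lower in both pairs and 1 separate and lower, against 4 and 3. Over all tested genes that scaling moved the share lower in both pairs from 32.3% to 17.8%. The count of called probe sets was 3 with median centring and 3 with a trended and robust prior, against 0, and 0 without any 1 array (0 to 0). With the replicate number as a block it was 0, with 1673 at an unadjusted p under 0.05 against 916. Same-numbered arrays deviated together (r = 0.383 across 22519 probe sets), and the labels do not say what the number marks.

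Of 29 named pathway genes, Osm not among them, 9 turned sign under some alternative (for Id3, Atoh8 and Il6, alternatives added after seeing the data). Without 1 array, the difference moved by over 1.5 times or turned for 27 of the 29, the exceptions being Acvrl1 and Jak1. With 1 array left out Id3 lay between -0.52 and 0.21, Il6 between -0.75 and 1.52, B2m between -0.24 and 0.17, Furin between -0.43 and 0.058, Id4 between -0.30 and 0.064, Smad1 between -0.19 and 0.52, Smad4 between -0.13 and 0.53, Smad5 between -0.57 and 0.050 and Smurf2 between -0.36 and 0.0088. B2m was 0.012 with median centring, and with the mean over probe sets Smad5 was 0.0020 and Smurf2 0.013. Dim signals limit Bmp6, Bmp10, Atoh8, Il6 and Hamp2.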
